A study of Homo sapiens with 8 samples.

Results

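The TNF ligand and receptor superfamilies and the TRAF adaptors that the receptors recruit were examined as 1 gene set of 52 genes out of the 57820 in the expression table. Members were taken by gene symbol alone. They were all genes named TNFRSF or TNFSF with a number, the members with older names (TNF, LTA, LTB, LTBR, FAS, FASLG, CD40, CD40LG, CD27, CD70, NGFR, EDA, EDAR and EDA2R) and TRAF1 to TRAF6, with antisense genes left out. By role they comprised 18 ligands, 8 receptors with a death domain, 4 decoy receptors, 16 receptors that bind TRAFs without a death domain and 6 TRAFs.

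Ligands of this family are mostly membrane proteins that act as trimers, and many can be shed from the cell. A receptor with a death domain can assemble a complex that activates caspases, and the other signalling receptors bind TRAF adaptors that lead to NF-κB and MAP kinase activation. Decoy receptors bind ligand without passing on a full signal, either because they are secreted or because they lack a working cytoplasmic domain. In epithelial cells and carcinomas the family is best known for setting sensitivity to TRAIL and FAS ligand and for driving inflammatory gene expression.

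The RNA came from OVCA429, a long-established line of human ovarian carcinoma cells. The control line expressed a hairpin directed at luciferase (shLuc), and the knockdown line one directed at GRHL2, an epithelial transcription factor (shGRHL2). Both were stable lines grown with puromycin, and 1 hairpin against GRHL2 represents the knockdown. Whether each line was 1 clone or a pool of infected cells is not given in the sources used here. The comparison asks how the family differed in cells with lowered GRHL2, a factor the study places among the suppressors of epithelial–mesenchymal transition.

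The labels list 4 samples per group, but the sample descriptions end as sequencing lanes do and the 4 samples of a group differed by a median coefficient of variation of 2.72% in shLuc and 2.79% in shGRHL2 over genes at 100 FPKM or more. Each group was therefore treated as 1 library sequenced in 4 runs, every SD below is the spread between runs, and no difference has a replicate check between separate cultures or a p-value. FPKM (fragment counts scaled to transcript length and sequencing depth) is a level per length. Depth was about 9.35 to 9.67 M (mega) fragments per run in shLuc and 9.94 to 10.17 M in shGRHL2, estimated from the steps of low values. MT-RNR2, a mitochondrial ribosomal RNA, made up 14.9% of all fragments in shLuc and 24.3% in shGRHL2, which enters the scaling of every FPKM. GRHL2 was at 31.5, 38.69, 33.35 and 31.98 FPKM in shLuc and 0.13, 0.15, 1.17 and 0.1 FPKM in shGRHL2, a level of 1.14% of the control. The markers fixed for ovarian carcinoma cells were all 11 above the filter, with 9 lower and 0 higher in shGRHL2. With 1 FPKM required in both groups the 9 became 7. Within the limit, PAX8 was at higher levels in shGRHL2 (69.8 and 122 FPKM) and KRT7 at lower levels (973 and 511 FPKM), both with runs apart. Among markers of other cell types, 7 of 16 leukocyte markers were at 0 in all runs (CD3E, NKG7 and TYROBP among them), 3 were tested with 1 higher (LAPTM5), and their summed level was 4.93 to 5.94 FPKM in shLuc and 9.75 to 11.0 FPKM in shGRHL2, while 8 endothelial markers summed to 1.37 to 1.69 FPKM and 94.5 to 99.8 FPKM. Nearly all of the latter was TIE1 (0.722 and 84.7 FPKM) and CDH5 (0.0375 and 10.8 FPKM). These and KDR were the 3 endothelial markers tested, all through shGRHL2 alone, so that their direction was set by the filter, and 0 remained with 1 FPKM required in both groups. The other 5 averaged less than 0.5 FPKM in either library, among them VWF (0.0575 and 0.153 FPKM) and ESAM (0.487 and 0.422 FPKM). Fibroblast markers, with DCN at 0 and COL1A1 (1.19 and 3.64 FPKM) making up most of the level, summed to 1.23 to 3.5 FPKM and 3.61 to 5.32 FPKM, and mesothelial markers, with WT1 and ITLN1 at 0, to 28.8 to 36.1 FPKM and 37.7 to 43.8 FPKM. MSLN (22.4 and 34.3 FPKM) made up most of the mesothelial sum. Of 4 mesothelial markers tested, 1 was higher (BNC1, through shGRHL2 alone) and 1 lower (UPK3B, 7.39 and 2.48 FPKM). The part of these differences in the results below was not tested, and in bulk RNA fewer cells of a kind cannot be told apart from less RNA per cell.

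A gene was counted as higher or lower in shGRHL2 when the group means of log2(FPKM + 1) differed by at least 1, among genes with a mean of 1 FPKM or more in at least 1 group. Of the 52 members 31 passed this filter. In shGRHL2, 4 of the 31 were higher by 2-fold or more (CD70, TNFRSF6B, TNFRSF11B and TNFRSF1B), beside 4.97% of all 15019 tested genes. A further 4 were lower by 2-fold or more (TNFSF15, LTB, TNFRSF21 and TRAF4), beside 7.24% of all tested genes. Together 25.8% of the tested members lay past the limit against 12.2% of tested genes. Among them TNFSF15 passed the filter through shLuc alone and TNFRSF1B through shGRHL2 alone, so their direction was set by the filter. With 1 FPKM required in both groups, 3 of 27 members were higher and 3 lower, beside 388 and 727 of all genes so filtered. How many genes passed that filter is not given here, so members and all genes cannot be compared by share under it. The runs of the groups did not overlap for 21 of the 31 members (67.7%), beside 51.6% of all tested genes. For all 4 higher and all 4 lower members the runs stood apart, as they did while past the limit for 4.26% (higher) and 6.68% (lower) of tested genes. The median difference of the tested members was −0.03 on the log2 scale (quartiles −0.53 and 0.56), and that of all tested genes was −0.10 (quartiles −0.43 and 0.24). With the mitochondrial ribosomal RNAs left out of the scaling, the members split into 6 higher and 3 lower and all tested genes into 1052 higher and 986 lower, compared with 746 and 1087 as deposited. Scaled to equal medians the members split into 5 higher and 3 lower, and as TPM into 3 and 5.

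By role, the 4 decoys, all tested, held 2 higher members and 0 lower, with a median difference of 1.76. The 7 tested ligands held 1 higher and 2 lower, the 6 tested death-domain receptors 0 and 1, the 9 tested TRAF-binding receptors 1 and 0, and the 5 tested TRAFs 0 and 1.

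**Figure D1:**
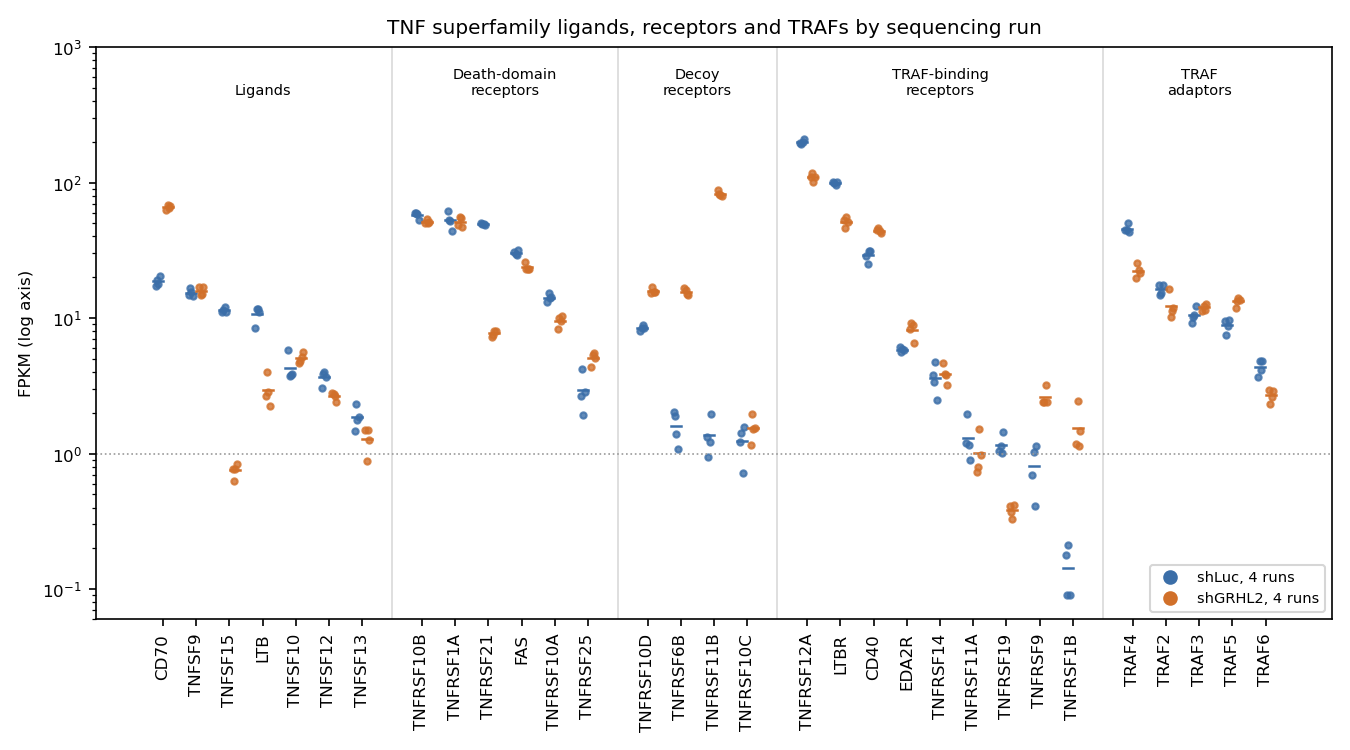
FPKM (log axis) of the 31 members that passed the filter, by role, with a point for each of the 4 runs per library (shLuc in blue, shGRHL2 in orange), a bar at their mean and a dotted line at the filter of 1 FPKM. The widest gaps are those of TNFRSF11B (1.36 and 82.6 FPKM) and TNFSF15 (11.4 and 0.752 FPKM), whereas TNFRSF1A lay at 52.8 and 51.4 FPKM with overlapping runs.

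**Figure D2:**
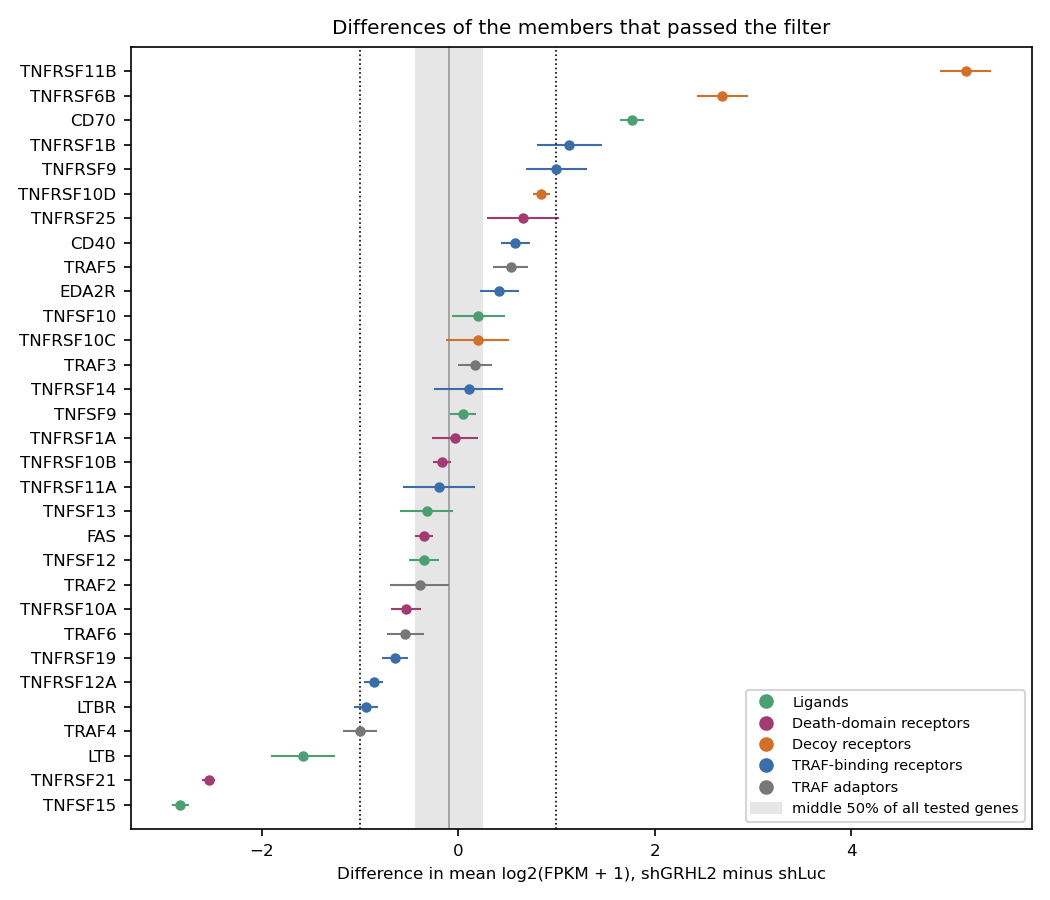
Difference in mean log2(FPKM + 1), shGRHL2 minus shLuc, for the 31 tested members, with lines of 1 SD between sequencing runs (both libraries combined), dotted lines at the limit of 1 in each direction and the middle 50% of all tested genes in grey around their median. Differences run from −2.83 for TNFSF15 to 5.16 for TNFRSF11B, and 4 members lie past the limit on each side.

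Among the ligands, TNFSF15 was the lowest in shGRHL2 relative to the control. TNFSF15 encodes TL1A, which activates T cells through TNFRSF25 and restrains endothelial growth. It lay at 11.12, 11.49, 11.98 and 11.07 FPKM in shLuc and at 0.77, 0.63, 0.77 and 0.84 FPKM in shGRHL2. All shLuc runs were far above all shGRHL2 runs. The mean was 11.4 ± 0.421 FPKM against 0.752 ± 0.0881 FPKM (SD, 4 runs), a 15.2-fold lower level and a log2 difference of −2.83. About 2448 and 170 fragments lay behind these means. The gene (ENSG00000181634.7) spans chr9:117546932-117568319 on the minus strand of GRCh37. Its neighbour TNFSF8, the ligand of CD30, averaged 0.1 FPKM and 0 FPKM.

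LTB was the other ligand below the limit. It encodes lymphotoxin β, which anchors lymphotoxin α to the membrane in the heterotrimer that engages LTBR. The level was 8.49, 11.64, 11.58 and 11.01 FPKM in shLuc and 2.65, 4.01, 2.85 and 2.26 FPKM in shGRHL2, so every shLuc run was above every shGRHL2 run. Means were 10.7 ± 1.49 FPKM and 2.94 ± 0.753 FPKM (SD, 4 runs), 3.63-fold lower in shGRHL2 with a log2 difference of −1.58. LTB (ENSG00000227507.2, chr6:31548302-31550299, minus strand, GRCh37) lies within 10.5 kb of LTA and TNF. LTA, the soluble partner, was near 0 throughout, at 0.08, 0, 0 and 0.09 FPKM in shLuc and 0, 0, 0.16 and 0.08 FPKM in shGRHL2. TNF itself did not pass the filter, with 1.01, 0.7, 0.27 and 0.55 FPKM in shLuc and 0.38, 0.2, 0.51 and 0.19 FPKM in shGRHL2, runs that overlapped.

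Promoter letters were read for the 35 members that had a RefSeq window of 250 bases before to 50 bases after an annotated start (GRCh38.p14). The GRHL palindrome AACCGGTT, which reads the same on both strands, was in 0 of the 35, beside 45 of 27305 genes with a window (0.165%). At that share a count of 0 among 35 says little. Other forms of the motif and sites outside the window were not searched. The kappa B consensus, the letters bound by NF-κB, was searched on both strands and was in 9 of the 35 members (25.7%), beside 1937 of the 27305 genes (7.09%). Of the members with a window, matches were in 1 of 4 lower, 0 of 2 higher, 6 of 16 within the limit and 2 of 13 untested members. LTB was the lower member with a match, and its window is shown with those of 2 members within the limit, TNFRSF9, whose positive difference was nearest to the limit, and TRAF3, whose runs overlapped between libraries. Each is written 5′ to 3′ on the strand of the gene, with the kappa B match in capitals, which for LTB follows the consensus on the opposite strand. They lie at chr6:31582482-31582531 (minus strand, match from −86 to −77 of the start), chr1:7940884-7940933 (minus strand, −74 to −65) and chr14:102777396-102777445 (plus strand, −33 to −24), all in GRCh38.p14. The LTB match lies at −87 to −78 when counted from the other annotated start of the gene, and in TNFRSF9 a match on the opposite strand at −73 to −64 overlaps the one shown. A match describes letters only.
LTB: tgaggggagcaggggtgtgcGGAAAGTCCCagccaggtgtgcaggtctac
TNFRSF9: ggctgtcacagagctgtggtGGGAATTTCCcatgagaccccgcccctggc
TRAF3: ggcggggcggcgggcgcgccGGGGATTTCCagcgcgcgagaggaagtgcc

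CD70 was the ligand higher in shGRHL2. It binds CD27 on lymphocytes and is carried by several carcinomas. The runs lay at 17.23, 19.08, 17.78 and 20.54 FPKM in shLuc and at 62.85, 68.53, 64.57 and 67.57 FPKM in shGRHL2, without overlap. The mean was 3.53-fold higher (18.7 ± 1.48 FPKM and 65.9 ± 2.63 FPKM, SD, 4 runs), a log2 difference of 1.77. CD70 (ENSG00000125726.6) spans chr19:6583194-6604114 on the minus strand of GRCh37, in a stretch of 139.6 kb with TNFSF9 and TNFSF14. Its receptor CD27 was close to 0, at 0.12, 0, 0 and 0.12 FPKM in shLuc and 0.08, 0.33, 0.08 and 0 FPKM in shGRHL2, as the neighbouring TNFSF14 (LIGHT, a ligand of LTBR and TNFRSF14) was, at 0.16, 0.41, 0.26 and 0.08 FPKM and 0.46, 0.39, 0.55 and 0.34 FPKM. The other neighbour, TNFSF9, encodes 4-1BB ligand, the partner of TNFRSF9. TNFSF9 lay at 14.76, 16.77, 15.45 and 14.51 FPKM in shLuc and 16.9, 14.82, 15.09 and 16.99 FPKM in shGRHL2, with overlapping runs, and its log2 difference of 0.05 became −0.05 as TPM.

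TNFSF10, which encodes TRAIL, lay at 5.78, 3.73, 3.78 and 3.86 FPKM in shLuc and at 4.62, 4.78, 5.13 and 5.59 FPKM in shGRHL2. The highest shLuc run was above all shGRHL2 runs and the other shLuc runs were below them, so the log2 difference of 0.20 lay within the run-to-run overlap. TNFSF12, encoding TWEAK, averaged 3.66 ± 0.428 FPKM and 2.65 ± 0.181 FPKM, and TNFSF13, encoding APRIL, 1.85 ± 0.365 FPKM and 1.29 ± 0.29 FPKM (SD, 4 runs). These neighbours share exons with a readthrough transcript listed at 0.115 FPKM and 0.2 FPKM. The 11 remaining ligands were below the filter, with FASLG and TNFSF11 (FAS ligand and RANKL) at 0 in all 8 runs. Summed over the 18 ligands, the level was 64.4 to 71.6 FPKM per run in shLuc and 93.8 to 98.8 FPKM in shGRHL2, of which CD70 made up 65.9 FPKM on average in shGRHL2.

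Decoy receptors held the widest difference of the set. TNFRSF11B encodes osteoprotegerin, a secreted receptor that captures RANKL and can also bind TRAIL. It lay at 1.32, 0.95, 1.22 and 1.96 FPKM in shLuc and at 87.91, 82.46, 80.49 and 79.65 FPKM in shGRHL2. No run of either library came near the other, and the mean was 60.6-fold higher in shGRHL2 (1.36 ± 0.428 FPKM and 82.6 ± 3.71 FPKM, SD, 4 runs), a log2 difference of 5.16. About 72 and 4629 fragments lay behind the means, so the fold rests on a low control level. The gene (ENSG00000164761.4) spans chr8:119935796-119964124 on the minus strand of GRCh37.

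TNFRSF6B encodes DcR3, a secreted decoy for FAS ligand, LIGHT and TL1A. Its runs were at 2.01, 1.9, 1.39 and 1.09 FPKM in shLuc and at 16.57, 16, 14.97 and 14.69 FPKM in shGRHL2, again with no overlap. The mean was 9.74-fold higher (1.6 ± 0.433 FPKM and 15.6 ± 0.879 FPKM, SD, 4 runs), a log2 difference of 2.69. TNFRSF6B (ENSG00000243509.4, chr20:62328005-62330037, plus strand, GRCh37) shares exons with the RTEL1-TNFRSF6B readthrough transcript (0.93 and 2.95 FPKM) on the same strand and with ARFRP1 (16.8 and 18.8 FPKM) on the opposite strand. The readthrough had a log2 difference of 1.03 and reached 1 FPKM in shGRHL2 alone. RTEL1, the other gene in its name, was at 4.8 and 9.96 FPKM, a difference of 0.92. How RSEM divided fragments among these genes is uncertain, and whether the counting used strand is not given in the sources used here.

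The remaining decoys are the membrane-bound TRAIL receptors TNFRSF10C and TNFRSF10D. TNFRSF10D lay at 7.99, 8.43, 8.86 and 8.38 FPKM in shLuc and 15.24, 17.05, 15.63 and 15.65 FPKM in shGRHL2, with no overlap and a log2 difference of 0.84, inside the limit. That difference was 1.01 with the mitochondrial ribosomal RNAs left out of the scaling. TNFRSF10C averaged 1.23 ± 0.371 FPKM and 1.55 ± 0.335 FPKM (SD, 4 runs) with overlapping runs. The 4 decoys together summed to 12.2 to 13.0 FPKM per run in shLuc and 112 to 121 FPKM in shGRHL2, where TNFRSF11B alone averaged 82.6 FPKM.

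The TRAIL death receptors stayed within the limit. TNFRSF10B (DR5) was at 59.87, 59.91, 58.7 and 52.93 FPKM in shLuc and at 50.68, 54, 50.4 and 50.91 FPKM in shGRHL2, where 1 shGRHL2 run exceeded the lowest shLuc run. TNFRSF10A (DR4) was at 13.11, 15.3, 14.05 and 14.18 FPKM and at 8.28, 10.04, 9.45 and 10.33 FPKM, with no overlap and a log2 difference of −0.53. Summed, these death receptors were at 72 ± 3.45 FPKM in shLuc and 61.0 ± 2.22 FPKM in shGRHL2, and the decoys that can bind TRAIL (TNFRSF10C, TNFRSF10D and TNFRSF11B) at 11.0 ± 0.613 FPKM and 100 ± 3.47 FPKM (SD, 4 runs). Without TNFRSF11B the decoy sum was 9.65 ± 0.331 FPKM and 17.4 ± 1.12 FPKM. The death receptors thus exceeded the decoys in the control at the RNA level, and in shGRHL2 the order was the reverse only when the secreted TNFRSF11B was included.

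TNFRSF21 was the death-domain receptor past the limit. It encodes DR6, which has a role in T helper cell responses and in the nervous system. Runs were at 50.26, 49.44, 49.66 and 48.92 FPKM in shLuc and at 7.28, 7.5, 8.08 and 8.01 FPKM in shGRHL2, with a narrow spread inside each library and no overlap. The mean was 6.42-fold lower (49.6 ± 0.555 FPKM and 7.72 ± 0.39 FPKM, SD, 4 runs), a log2 difference of −2.54, with about 6499 and 1068 fragments behind it. TNFRSF21 (ENSG00000146072.6, chr6:47199268-47277641, minus strand, GRCh37) was the member with rank 5 by level in shLuc and was not among the 8 highest in shGRHL2.

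The other death-domain receptors stayed within the limit. TNFRSF1A, the main receptor of TNF on non-immune cells, was at 62.01, 52.67, 52.3 and 44.04 FPKM in shLuc and at 48.5, 55.7, 54.74 and 46.71 FPKM in shGRHL2, fully overlapping, with a log2 difference of −0.03 that ranged from −0.14 to 0.13 over the alternative settings. FAS, the receptor of FAS ligand, was at 30.88, 29.62, 29.33 and 31.6 FPKM and at 25.75, 22.93, 22.93 and 23.16 FPKM, a difference of −0.35 without overlap. TNFRSF25 (DR3), the signalling receptor of TNFSF15, was at 2.68, 4.22, 1.94 and 2.86 FPKM and at 4.32, 5.37, 5.55 and 5.04 FPKM, a difference of 0.66 with the runs apart. FAS shares sequence on the opposite strand with ACTA2 (3.6 and 6.56 FPKM), and TNFRSF10B and TNFRSF25 with RHOBTB2 and ESPN. NGFR, the low-affinity neurotrophin receptor, and EDAR, the ectodysplasin receptor, averaged no more than 0.11 FPKM in either library. The sum over the 8 death-domain receptors was 195 to 219 FPKM per run in shLuc and 144 to 156 FPKM in shGRHL2, and TNFRSF21 accounted for most of the gap.

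Ligands were then set beside their receptors. TNFSF15 was lower while both its signalling receptor TNFRSF25 and its decoy TNFRSF6B were at higher levels in shGRHL2, the first within the limit. CD70 was higher with CD27 near 0 in both libraries, TNFRSF11B was higher with TNFSF11 at 0, and TNFRSF1B was higher with TNF below the filter. LTB and LTBR were both at lower levels in shGRHL2, the receptor just inside the limit.

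**Figure D3:**
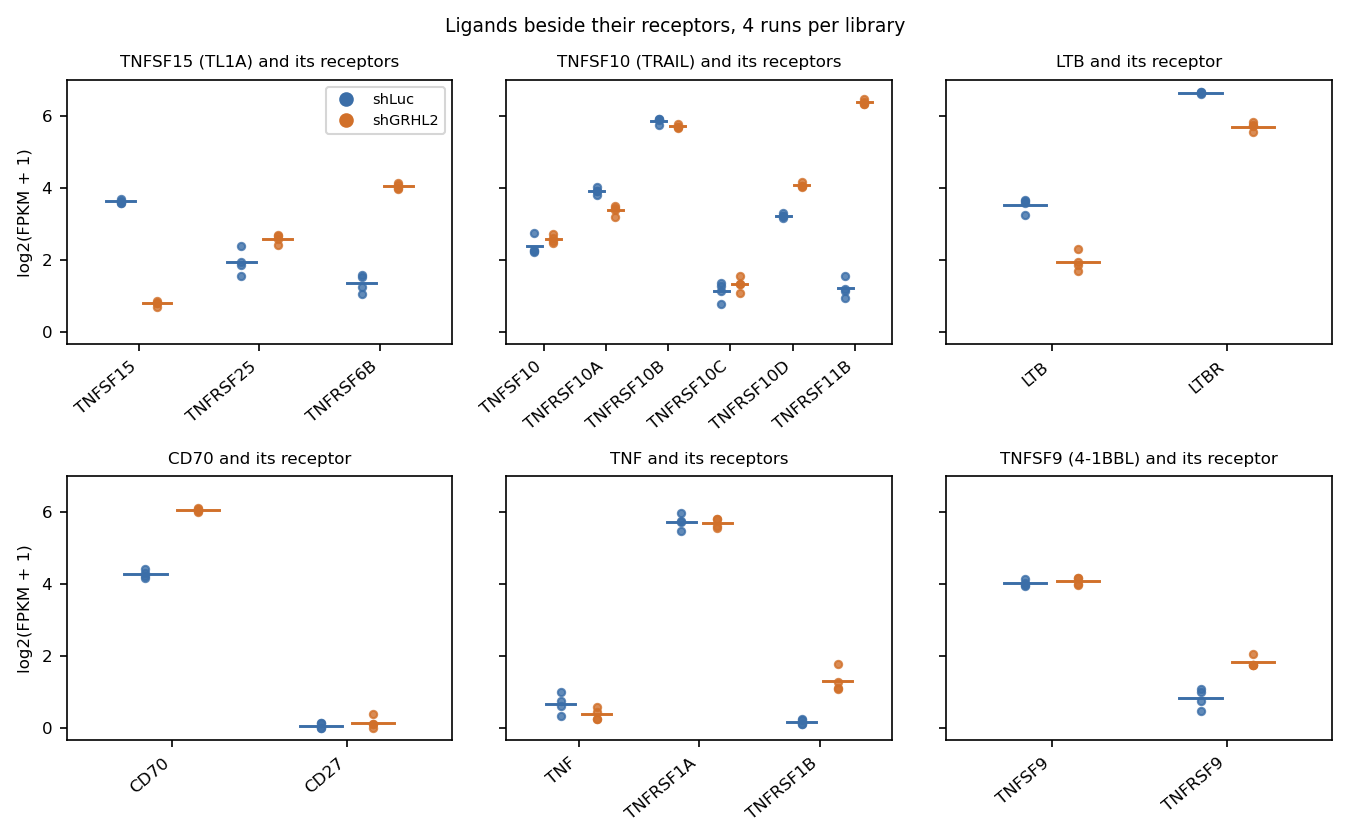
log2(FPKM + 1) of 6 ligands and their receptors, with a point for each of the 4 runs per library (shLuc in blue, shGRHL2 in orange) and a bar at the mean. TNFSF15 was at 11.4 and 0.752 FPKM while its decoy TNFRSF6B was at 1.6 and 15.6 FPKM, and the receptor CD27 stayed near 0 beside CD70 at 18.7 and 65.9 FPKM.

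Of the receptors that bind TRAFs directly, TNFRSF1B was the member past the limit, at a low level. It encodes TNF receptor 2, which responds mainly to membrane-bound TNF. Runs were at 0.18, 0.09, 0.21 and 0.09 FPKM in shLuc and at 1.18, 2.43, 1.13 and 1.46 FPKM in shGRHL2, with no overlap and 1 shGRHL2 run above the rest. The mean was 10.9-fold higher (0.142 ± 0.0618 FPKM and 1.55 ± 0.604 FPKM, SD, 4 runs), a log2 difference of 1.13 that was 0.981 without that run and to 0.995 as TPM, both just inside the limit. About 19 and 220 fragments lay behind the means, and the gene passed the filter through shGRHL2 alone. TNFRSF1B (ENSG00000028137.12) spans chr1:12227048-12269285 on the plus strand of GRCh37. It is also expressed by leukocytes and endothelial cells, whose marker sums are given above. Of the leukocyte markers with a level, PTPRC (CD45) was at 0.502 and 0.495 FPKM, CD68 at 0.88 and 2.74 FPKM, LAPTM5 at 1.76 and 6.38 FPKM and CSF1R at 1.32 and 0.397 FPKM, so they did not differ in 1 direction.

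TNFRSF9 (4-1BB), a costimulatory receptor of T cells, lay on the limit itself. It was at 0.7, 1.02, 0.41 and 1.13 FPKM in shLuc and at 2.4, 2.4, 3.19 and 2.4 FPKM in shGRHL2, with no overlap and a log2 difference of 0.999. Across the alternative settings that kept it, the difference ran from 0.88 to 1.63 and was past the limit in 8 of 13. About 47 and 159 fragments lay behind its means, so it is not ranked against TNFRSF1B.

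The most abundant members in shLuc were TRAF-binding receptors. TNFRSF12A (Fn14), the receptor of TWEAK, led both libraries, at 197.12, 193.12, 198.64 and 208.68 FPKM in shLuc and 109.45, 117.28, 101.28 and 110.01 FPKM in shGRHL2. LTBR, the lymphotoxin β receptor, was second in shLuc, at 100.07, 99.77, 96.16 and 100.77 FPKM, and lay at 53.17, 45.83, 55.63 and 51.54 FPKM in shGRHL2. Neither gene had overlapping runs, and neither reached the limit, with log2 differences of −0.86 for TNFRSF12A and −0.93 for LTBR (−1.04 as TPM). Both overlap genes on the opposite strand that were also at lower levels in shGRHL2. For TNFRSF12A this gene is CLDN6, a claudin, at 222 ± 5.17 FPKM and 67.2 ± 2.56 FPKM, and for LTBR it is SCNN1A, an epithelial sodium channel subunit, at 10.2 ± 1.51 FPKM and 2.06 ± 0.47 FPKM (SD, 4 runs). If the counting ignored strand, fragments of these pairs cannot be told apart where they overlap.

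CD40, which licenses antigen-presenting cells and is also found on carcinomas, was at 28.72, 25.22, 31.42 and 31.37 FPKM in shLuc and at 44.38, 45.87, 43.88 and 42.19 FPKM in shGRHL2. The runs did not overlap and the log2 difference was 0.58, inside the limit, and CD40LG was at 0.015 FPKM or less on average. EDA2R, a receptor of ectodysplasin, averaged 5.85 ± 0.189 FPKM and 8.22 ± 1.19 FPKM, and TNFRSF19 (TROY) 1.16 ± 0.199 FPKM and 0.383 ± 0.0411 FPKM (SD, 4 runs), both with the runs apart. TNFRSF14 (HVEM) and TNFRSF11A (RANK) averaged 3.58 and 3.88 FPKM and 1.3 and 1.0 FPKM. The 7 other receptors of this class, among them the B cell receptors of BAFF and APRIL, were below the filter, and TNFRSF18 (GITR) was at 0 in all runs. Over the 16 receptors the sum was 331 to 353 FPKM per run in shLuc and 219 to 229 FPKM in shGRHL2.

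Among the TRAF adaptors, TRAF4 sat at the limit. TRAF4 is the family member found in epithelia, with roles at tight junctions and in cell migration. It was at 44.84, 44.54, 50.24 and 42.92 FPKM in shLuc and 19.74, 25.38, 22.74 and 21.59 FPKM in shGRHL2, without overlap. The mean was 2.04-fold lower (45.6 ± 3.18 FPKM and 22.4 ± 2.36 FPKM, SD, 4 runs), a log2 difference of −1.0, at the limit. TRAF4 (ENSG00000076604.10, chr17:27071029-27077974, plus strand, GRCh37) remained past the limit in 10 of 15 alternative settings. It lay inside the limit at equal medians (−0.875), with the mitochondrial ribosomal RNAs left out (−0.851), without shLuc run 3 (−0.954), without shGRHL2 run 1 (−0.945) and without shGRHL2 run 4 (−0.986).

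TRAF2, which recruits the cIAP ubiquitin ligases, was at 17.67, 14.91, 15.2 and 17.6 FPKM in shLuc and 16.26, 10.12, 11.26 and 11.83 FPKM in shGRHL2, with 1 shGRHL2 run inside the shLuc range. TRAF3, a brake on the non-canonical NF-κB branch, was at 9.26, 10.15, 10.59 and 12.29 FPKM and at 11.31, 12.36, 11.53 and 12.67 FPKM, overlapping. TRAF5, a relative of TRAF2, was at 9.55, 7.51, 8.71 and 9.68 FPKM and at 11.95, 13.38, 14.13 and 13.59 FPKM, apart and with a log2 difference of 0.54. TRAF6, the ubiquitin ligase shared with the interleukin-1 and Toll-like receptors, averaged 4.37 ± 0.563 FPKM and 2.69 ± 0.276 FPKM (SD, 4 runs), also apart, with a difference of −0.54. Only TRAF1 of the 6 was below the filter.

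By level, the family was ordered differently in the libraries. In shLuc the highest were TNFRSF12A at 199 FPKM, LTBR at 99.2 FPKM, TNFRSF10B at 57.9 FPKM, TNFRSF1A at 52.8 FPKM and TNFRSF21 at 49.6 FPKM. TNFRSF10B and TNFRSF1A overlapped in their runs, as did TNFRSF1A and TNFRSF21. In shGRHL2 TNFRSF12A at 110 FPKM was followed by TNFRSF11B at 82.6 FPKM and CD70 at 65.9 FPKM, and the next 3, TNFRSF10B, LTBR and TNFRSF1A, lay between 51.4 and 51.5 FPKM and could not be separated by their runs. In the genome, 24 members lay in 9 clusters within 500 kb of a neighbour. Of these clusters 4 held a member past the limit and 0 held more than 1. In the clusters of TNFRSF1B, LTB and TNFSF15 no other member was tested, so a second could not be counted. The TRAIL receptor cluster on chromosome 8 was not among the 4.

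Accounting for the rest, 21 members did not pass the filter. They averaged at most 0.752 FPKM in either library, 3 of them (TNFRSF18, TNFSF11 and FASLG) were at 0 in all 8 runs, and their log2 differences lay between −0.60 and 0.24. Of the 23 tested members within the limit, 11 had a positive and 12 a negative difference. Runs did not overlap for 13 of them, beside 51.6% of all tested genes, past the limit or not. Of the 31 that passed, 27 reached 1 FPKM in both libraries, whereas TNFSF15 and TNFRSF19 passed through shLuc alone and TNFRSF1B and TNFRSF9 through shGRHL2 alone.

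Genes around the receptors were counted in 8 lists. Their sizes varied, and all counts are to be read beside the 4.97% higher and 7.24% lower of all tested genes. The list of TNF receptor 1 complex and IKK genes had 17 of 17 tested, 0 higher and 2 lower, with a median log2 difference of −0.15. The lower genes were TAB3, an adaptor of the TAK1 kinase (18.8 and 4.59 FPKM, −1.82), and BIRC3, which encodes the ubiquitin ligase cIAP2 (16.6 and 7.45 FPKM, −1.06). The count of 2 became 1 at equal medians and with the mitochondrial ribosomal RNAs left out. Of the 13 death receptor and necroptosis effectors, all tested, 0 were higher and 2 lower (median −0.11). These were RIPK3, the kinase of necroptosis (1.96 and 0.203 FPKM, −1.30), and CASP6, an effector caspase (13.4 and 5.99 FPKM, −1.03). Here too the count became 1 in several settings, among them 1 FPKM required in both groups. RIPK3 passed the filter through shLuc alone, so its direction was set by the filter.

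Of 10 brakes on TNF signalling, 1 was higher and 0 lower (median 0.06). ZC3H12A, encoding the ribonuclease Regnase-1, was at 19 and 49.8 FPKM, a log2 difference of 1.35. The NF-κB inhibitors TNFAIP3 (33.1 and 54.3 FPKM) and NFKBIA (54.6 and 93.0 FPKM) were within the limit at higher levels with runs apart, and CYLD (12.4 and 9.45 FPKM) and NFKBIB (9.8 and 7.27 FPKM) within it at lower levels with runs apart. The non-canonical NF-κB list (7 of 7 tested, median −0.17) and the shedding proteases and their regulators (8 of 8, −0.37) had 0 genes past the limit in either direction. The same held for the other TRAF-domain and TRAF-binding genes (8 of 8, −0.16) and the list around NGFR, EDAR and RELT (8 of 13, −0.07). The non-canonical list also holds NFKB1, RELA and REL. NFKB1 was at higher levels (11.4 and 16.5 FPKM) and NFKB2 (12.5 and 8.97 FPKM) and REL (5.13 and 2.61 FPKM) at lower levels, all with runs apart. The last list also holds BTLA, CD160, HHLA2 and RELT itself, which the symbol rule did not take as a member. RELT was at 5.21 and 10.0 FPKM (0.83) and SORT1 at 26.3 and 13.8 FPKM (−0.89), both with runs apart.

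The list of TNF-inducible genes had the most genes past the limit among the 8 lists, with 10 of 17 tested genes higher and 0 lower and a median log2 difference of 2.17, beside −0.10 for all tested genes. The lists were chosen with earlier results of these data known, so their order is description only. The counts hold for the genes placed in this list, and genes of the other lists were not sorted by their response to TNF. With 1 FPKM required in both groups the count of higher genes was 8 and the median 1.61, since MMP9 and CCL2 passed the filter through shGRHL2 alone. The highest were MMP9, a gelatinase, at 0.84, 0.83, 0.52 and 0.68 FPKM in shLuc and 19.57, 20.19, 20.01 and 19.6 FPKM in shGRHL2, and PTX3, a secreted pentraxin, at 3.51, 3.81, 3.66 and 2.6 FPKM and 50.42, 53.07, 50.84 and 52.88 FPKM. The lowest past the limit were the cytokine IL6 (6.58 and 22.1 FPKM, 1.61) and the chemokine CCL2 (0.0875 and 3.94 FPKM, 2.17). TNFAIP8 was just inside at 0.996, while IRF1 (−0.92) and PLAU (−0.69) were at lower levels within the limit and VCAM1 was at 0. The list name gives how these genes are known to respond, and TNF itself was at 0.633 and 0.32 FPKM. Several are also made by leukocytes, endothelial cells and fibroblasts, whose marker sums are given above and rested on few genes. Whether any TNF family signal bore on these levels was not tested.

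**Figure D4:**
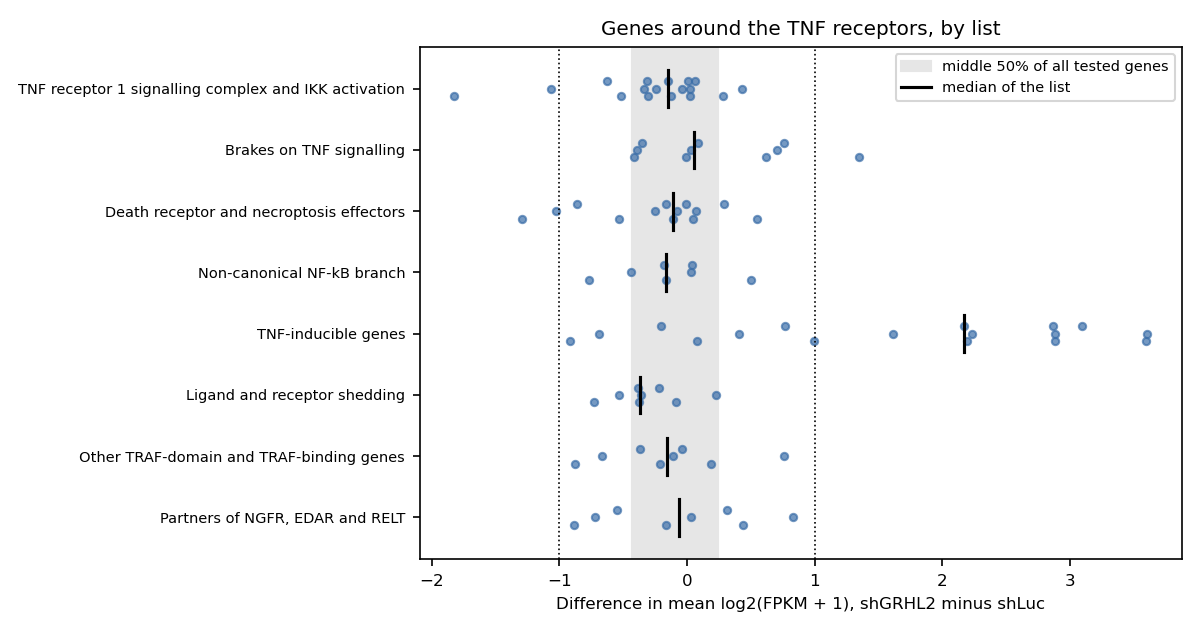
Difference in mean log2(FPKM + 1), shGRHL2 minus shLuc, for the tested genes of 8 lists, with a point per gene, a black bar at each list's median, dotted lines at the limit of 1 and the middle 50% of all tested genes in grey. The TNF-inducible list has 10 genes beyond the upper limit and a median of 2.17, and the other medians lie between −0.37 and 0.06. The lists were chosen with earlier results of these data known. The list labelled non-canonical also holds NFKB1, RELA and REL, and the list of partners also holds RELT itself, BTLA, CD160 and HHLA2.

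The 8 members past the limit did not all hold it equally under other scalings and pseudocounts. CD70, TNFRSF6B, TNFRSF11B, LTB and TNFRSF21 were past the limit in 15 of 15 alternative settings and TNFSF15 in the 14 of 14 that kept it. TRAF4 and TNFRSF1B were the ones that crossed it, in 5 of 15 and 2 of 13 settings.

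**Figure D5:**
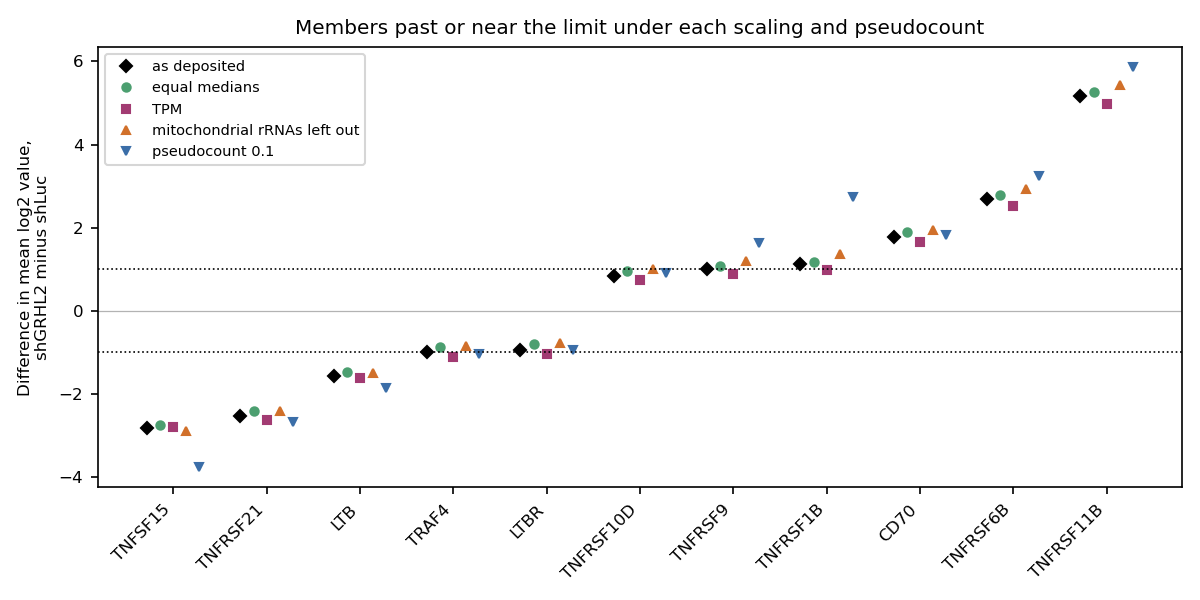
Log2 difference, shGRHL2 minus shLuc, of 11 members past or near the limit with FPKM as deposited, scaled to equal medians, as TPM, with the mitochondrial ribosomal RNAs left out of the scaling, and with a pseudocount of 0.1 FPKM; dotted lines mark the limit of 1. TRAF4 moved between −1.10 and −0.85 over these, TNFRSF9 between 0.88 and 1.63, and no gene changed its sign.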

How the data were processed

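RNA from OVCA429 shLuc and shGRHL2 cells was prepared with a stranded total RNA kit. Per the labels, the submitters' processing notes and the paper's methods, the authors demultiplexed with bcl2fastq 2.17.1.14, aligned to hg19 with STAR 2.4.2a and quantified with RSEM 1.2.25 against Gencode v19. The deposited values used here are FPKM per gene. RSEM divides fragments shared between transcripts, so overlapping genes and readthrough transcripts are less certain. The deposited table also gives other values, gene length and effective length, from 1 unnamed sample or pool. Effective lengths served to estimate depth, fragment numbers, the MT-RNR2 share and the scaling without the mitochondrial ribosomal RNAs. With them 88.7% to 90.7% of low values per run came out as whole fragments within 0.1. Fragment shares summed to 1.015 to 1.022 per run rather than 1, so such shares are approximate. Depth was about 38.1 and 40.2 M (mega) fragments per library, and fragment numbers beside genes are approximate.

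The study called differential genes from counts, which FPKM are not, and as each group is 1 library no test was made. Groups were compared by the difference of mean log2(FPKM + 1), which understates changes of low genes, with a limit of 1 and a filter of a mean of 1 FPKM in at least 1 group. Folds are ratios of mean FPKM. The computation (Python 3.11.15, pandas 2.3.3, numpy 2.4.6) was tested on simulated data. Coordinates came from Gencode v44 lifted to GRCh37, and promoter windows from RefSeq on GRCh38.p14, a build used for sequences only. Values per run are given for members past the limit and members at 10 FPKM or more in either group. They are also given for ligand or receptor partners of members past the limit. From the lists, the 2 highest and 2 lowest genes past the limit are named, most of them by means only. Other genes named were chosen after their values were seen. Members and lists were chosen with earlier results of these data known. Alternatives were a pseudocount of 0.1 FPKM, no filter or one of 5 FPKM, equal medians, TPM, mitochondrial ribosomal RNAs left out of the scaling, leaving out each run and, chosen after seeing the data, a filter of 1 FPKM in both groups. PECAM1 of the endothelial markers was not matched and was not used.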

Additional observations from a re-analysis of the deposited data

Results flagged for a closer look

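Over 64 sets of 4 runs (31 tested members and GRHL2 in each library), 5 had 1 run farther from the others than Dixon's criterion allows, where chance gives about 1 in 20. In shGRHL2 these were GRHL2 at 1.17 FPKM in run 3 with the other runs at 0.1 to 0.15 FPKM, TNFRSF9 at 3.19 FPKM in run 3 with the others at 2.4 FPKM, FAS at 25.75 FPKM in run 1 with the others at 22.93 to 23.16 FPKM, and TNFRSF10B at 54.0 FPKM in run 2 with the others at 50.4 to 50.91 FPKM. In shLuc it was TNFSF10 at 5.78 FPKM in run 1 with the others at 3.73 to 3.86 FPKM. All are spreads between sequencing runs of 1 library, and their cause was not tested.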

How the results depend on the processing

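Across 15 alternative settings 0 named differences past the limit changed sign. Members higher and lower numbered 5 and 5 with a pseudocount of 0.1 FPKM, 4 and 4 without the filter, 3 and 4 with a filter of 5 FPKM, and 3 and 3 with 1 FPKM required in both groups, the setting chosen after seeing the data. Leaving out 1 run gave 4 to 5 higher and 3 to 4 lower members. The median difference of the tested members was −0.03, with −0.11 to 0.03 when 1 run was left out, and it moved to 0.10 at equal medians, −0.14 as TPM and 0.13 with the mitochondrial ribosomal RNAs left out, so its sign depends on the scaling. Equal medians shifted the median difference of all tested genes by 0.11. All tested genes split into 1324 higher and 1663 lower at a pseudocount of 0.1 FPKM, 464 and 807 with the filter of 5 FPKM and 388 and 727 with the filter in both groups. How many genes passed either of these filters is not given here, so the counts under them give no shares. As TPM they split into 615 and 1189, and at equal medians into 888 and 922. TNFRSF1A and TNFSF9, both near 0, changed sign with the scaling. The TNF-inducible list had 11 higher genes at equal medians, with the mitochondrial ribosomal RNAs left out and with a pseudocount of 0.1 FPKM, 9 with a filter of 5 FPKM, 8 with 1 FPKM in both groups, and 1 lower gene as TPM. No paired analysis was possible because the result comes from no test and the replicate numbers name sequencing runs of 1 library per group. With 1 library per group the differences cannot be separated from those between 2 cultures, and depth limits members under about 1 FPKM.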

Other observations

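Among the members below the filter, TNFSF18 and TRAF1 had runs that did not overlap. TNFSF18, the ligand of GITR, was at 0.34, 0.88, 0.8 and 0.99 FPKM in shLuc and 0.11, 0.27, 0 and 0.22 FPKM in shGRHL2, about 52 and 11 fragments. TRAF1, an adaptor often found with TRAF2, was at 0.15, 0.09, 0.12 and 0.1 FPKM in shLuc and 0, 0.03, 0.03 and 0 FPKM in shGRHL2, about 16 and 2 fragments. These members were named after their values were seen.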
